A study of Mus musculus with 12 samples.

Results

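Expression of 8 neural and neural crest genes was followed in atria and ventricles of the mouse embryonic heart and in the parts of mouse heart organoids (HOs) that resemble these chambers. The 8 genes (Nes, Sox2, Pax6, Sox10, Tubb3, Ncam1, Map2 and Dcx) are the rows that carry these names among the 26190 genes of the expression table, and each name had 1 row. HOs were grown from embryonic stem cells on a laminin and entactin gel with FGF4, with BMP4, BIO and LIF added later, and on day 13 each was dissected into an atrium-like and a ventricle-like part. Embryonic hearts at E11.5 (E11.5H) were dissected into atria and ventricles for comparison. RNA of each of the 4 groups was sequenced in 3 replicate libraries, and the labels give all 12 the strain C57BL/6. According to the methods, the stem cells came from 3 wild-type lines, of C57BL/6 or of an F1 hybrid of C57BL/6 and JF1. The labels tie no library to a line, an embryo or an organoid and do not say whether material was pooled, so p-values below measure only the spread between these libraries.

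The nerves of the heart come from outside it. Cells of the neural crest migrate into the heart tube, where they contribute to the outflow tract and form Schwann cells and parasympathetic neurons, and sympathetic axons arrive later from ganglia outside the heart. Crest-derived precursors carry Sox10, autonomic neurons then turn on Phox2a and Gata genes, and all neurons share a cytoskeleton built with neuron-specific tubulin and microtubule-associated proteins. Several of the 8 genes are not exclusive to neural cells: Nes is also found in myogenic and endothelial cells, Sox2 in foregut epithelium, Pax6 in endocrine cells and Ncam1 in muscle.

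Each library held between 23971258 and 30540993 fragments assigned to genes (median 27966136). Pearson correlation of log2 CPM between replicates ranged from 0.992 to 0.995 for the embryonic groups and from 0.918 to 0.967 for the HO groups, and the spread estimated for a gene across replicates (the biological coefficient of variation) was 0.211 between the embryonic chambers and 0.677 between the HO parts. The summed level of 10 cardiomyocyte genes lay between 6270 and 7296 FPKM in E11.5H, where FPKM is the number of fragments corrected for transcript length and library depth. In HOs it lay between 131 and 1912 FPKM. For 10 genes of gut and other epithelium the embryonic sums were 73.4 to 99.8 FPKM and the HO sums 629 to 3573. All 10 cardiomyocyte genes reached 1 FPKM in every library except HO atrium-like part 1, where 9 did. In bulk RNA, fewer cells of a type and less RNA per cell cannot be told apart.

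The neuronal members set 1 HO library apart from the rest. HO ventricle-like part 2 had the highest level of the 6 HO libraries for 6 of the 8 members, Sox10 being highest in HO atrium-like part 2 and Sox2 in HO ventricle-like part 3. Over the 12897 genes with a mean of at least 1 FPKM, the same library was highest for 24.8%. It held 90.6% of the Dcx level summed over the 6 HO libraries, 82.7% for Map2, 60.7% for Tubb3, 31.4% for Nes and 28.7% for Ncam1.

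**Figure D1:**
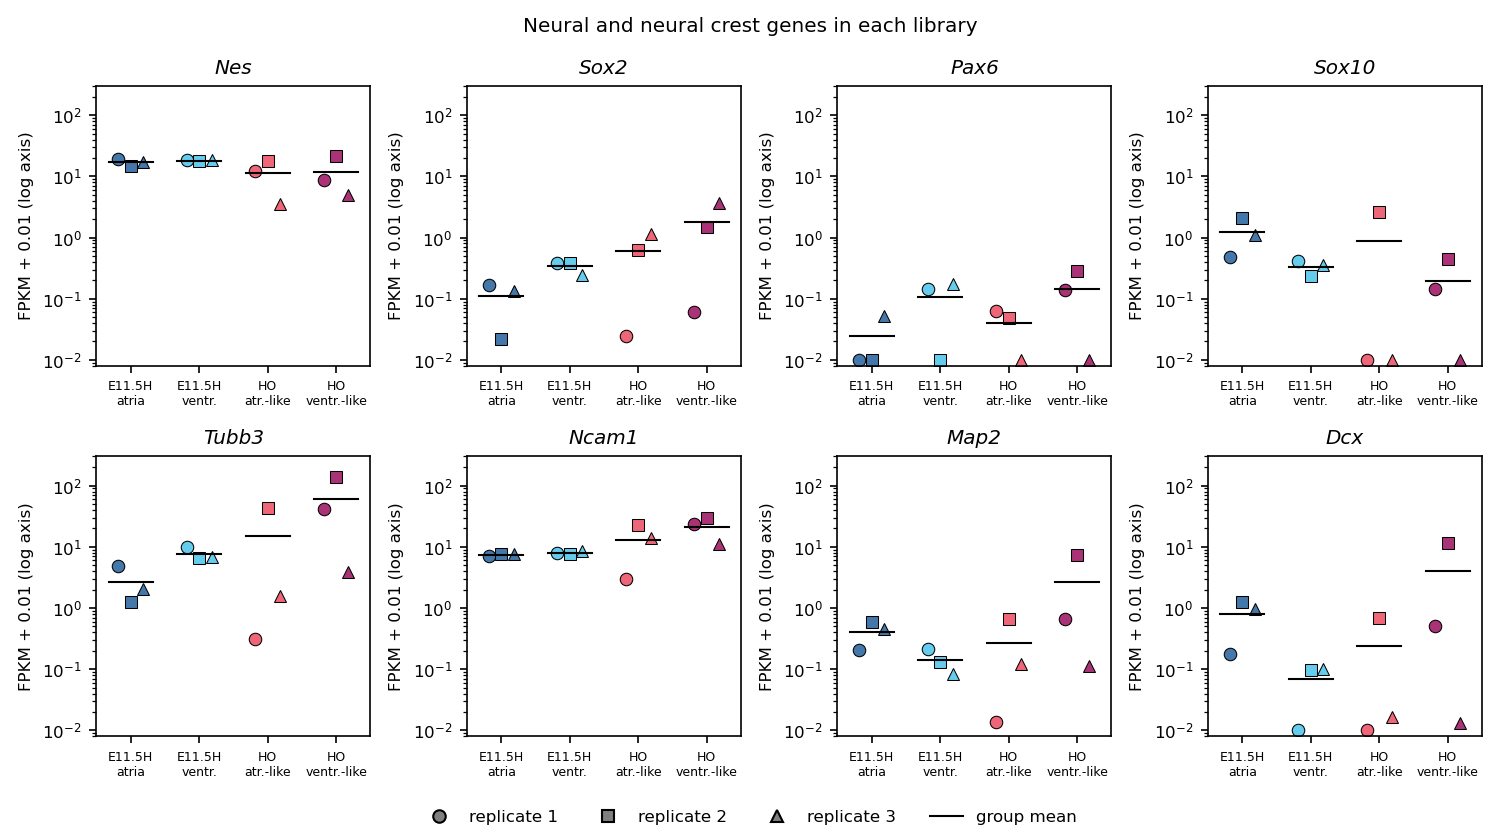
Level of each of the 8 genes in each of the 12 libraries, as FPKM plus 0.01 on a log axis, by group (E11.5H atria, E11.5H ventricles, HO atrium-like and HO ventricle-like parts). Symbols mark replicate numbers and bars the group mean of FPKM (n = 3). The 3 embryonic libraries of a chamber lie close together for Nes and Ncam1, while Tubb3 runs from 0.301 to 138 FPKM among the HO libraries.

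Of the genes that mark precursors, Nes encodes the intermediate filament nestin of neural stem cells (mm10 chr3:87971093-87980451, plus strand). Its level was 19.4, 14.9 and 17.4 FPKM in E11.5H atria, 18.5, 17.7 and 18.3 in E11.5H ventricles, 12.3, 18.1 and 3.54 in HO atrium-like parts and 8.77, 21.8 and 4.93 in HO ventricle-like parts. The embryonic chambers therefore overlapped, 4 of the 6 HO libraries lay below every embryonic library, and 1 lay above them all. Group means were 17.2 ± 2.26 and 18.2 ± 0.412 FPKM in E11.5H atria and ventricles and 11.3 ± 7.32 and 11.8 ± 8.83 in HO atrium-like and ventricle-like parts (SD, n = 3 each). Nes was the member with the narrowest range in HOs, 6.15-fold from the lowest to the highest library.

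Sox2, a transcription factor of neural progenitors and of pluripotent and foregut cells, lies inside the long non-coding gene Sox2ot on the same strand (mm10 chr3:34649995-34652460), and its row also lists a Sox2ot transcript, so reads of the 2 genes cannot be fully separated. Its level was 0.160, 0.012 and 0.125 FPKM in E11.5H atria, 0.379, 0.377 and 0.233 in E11.5H ventricles, 0.0142, 0.622 and 1.13 in HO atrium-like parts and 0.0495, 1.49 and 3.73 in HO ventricle-like parts. The atria lay below the ventricles without overlap in E11.5H, and 4 of the 6 HO libraries lay above all embryonic ones. The 2 low HO libraries, both replicate 1, rested on 1 and 4 fragments, while HO ventricle-like part 3 had 298. Epithelial genes summed to 2418 FPKM in HO ventricle-like part 3, where Sox2 was highest. Their sum was highest (3573) in HO atrium-like part 1, where Sox2 was lowest, and lowest (629) in HO ventricle-like part 2, where Sox2 was next to highest. The part of epithelium in the Sox2 level was not tested.

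Pax6, a transcription factor of the eye, brain and endocrine pancreas, overlaps Pax6os1 and Elp4 on the opposite strand (mm10 chr2:105668896-105698410). It was barely detected. Its level was 0, 0 and 0.0425 FPKM in E11.5H atria, 0.133, 0 and 0.161 in E11.5H ventricles, 0.0534, 0.0379 and 0 in HO atrium-like parts and 0.131, 0.269 and 0 in HO ventricle-like parts. The highest library held 41.8 fragments, all 4 groups overlapped, and the gene passed the filter on low counts in 1 of the 4 comparisons of groups.

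Sox10, the transcription factor that marks migrating neural crest and its glial derivatives (mm10 chr15:79154913-79164490, minus strand), was found in every embryonic library. Its level was 0.479, 2.08 and 1.08 FPKM in E11.5H atria and 0.397, 0.228 and 0.349 in E11.5H ventricles, with the atria above the ventricles without overlap. In HO atrium-like parts it was 0, 2.58 and 0 FPKM, from 0, 237 and 0 fragments, and in HO ventricle-like parts 0.135, 0.429 and 0, from 12, 38 and 0 fragments. A single library, HO atrium-like part 2, thus held 82.1% of the Sox10 level of all HO libraries and exceeded every embryonic library, while 3 of the 6 HO libraries had no fragment. A count of 0 allows a level of up to 3 fragments, or 0.0982 to 0.125 CPM (counts scaled by the library total) over the 12 libraries, from counting error only.

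Tubb3 encodes the neuron-specific class III beta-tubulin (mm10 chr8:123411553-123422015, plus strand). It stood at 4.81, 1.23 and 2.0 FPKM in E11.5H atria and at 9.82, 6.54 and 6.76 in E11.5H ventricles. Levels were 0.301, 42.9 and 1.54 FPKM in HO atrium-like parts and 40.9, 138 and 3.88 in HO ventricle-like parts, a 459-fold range. E11.5H ventricles lay above E11.5H atria in every library. Of the HO libraries, 3 lay above all embryonic ones (HO atrium-like part 2 and HO ventricle-like parts 1 and 2), and in HO ventricle-like part 2 Tubb3 stood at the 98.0th percentile of all genes in that library. Group means were 2.68 ± 1.88 FPKM in E11.5H atria, 7.70 ± 1.83 in E11.5H ventricles, 14.9 ± 24.2 in HO atrium-like parts and 61.0 ± 69.4 in HO ventricle-like parts (SD, n = 3 each). After the first pair, neighbours in this order differed by less than their spread.

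Ncam1, which encodes a neural cell adhesion molecule of axons, crest derivatives and muscle, overlaps Gm11149 on the opposite strand (mm10 chr9:49502129-49799393, minus strand). Its level was 7.13, 7.52 and 7.54 FPKM in E11.5H atria and 8.06, 7.5 and 8.50 in E11.5H ventricles, so that the chambers overlapped within a narrow range. HO atrium-like parts had 2.95, 22.4 and 13.8 FPKM and HO ventricle-like parts 23.7, 29.6 and 11. In 5 of the 6 HO libraries the level was above every embryonic library, and in HO atrium-like part 1 it was below them all. Means were 7.40 ± 0.229, 8.02 ± 0.499, 13 ± 9.72 and 21.4 ± 9.54 FPKM in the order given (SD, n = 3 each).

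Map2 encodes a microtubule-associated protein of dendrites (mm10 chr1:66175329-66442583, plus strand). Its level was 0.195, 0.575 and 0.440 FPKM in E11.5H atria, 0.205, 0.121 and 0.0743 in E11.5H ventricles, 0.00349, 0.659 and 0.113 in HO atrium-like parts and 0.640, 7.26 and 0.105 in HO ventricle-like parts. The embryonic chambers overlapped, and HO ventricle-like part 2 was the only library above 1 FPKM. Dcx encodes doublecortin, a microtubule-binding protein of young migrating neurons (mm10 chrX:143855842-143933219, minus strand). It was at 0.167, 1.25 and 0.972 FPKM in E11.5H atria and at 0, 0.0880 and 0.0924 in E11.5H ventricles, without overlap. HO atrium-like parts had 0, 0.674 and 0.00671 FPKM, and HO ventricle-like parts 0.500, 11.4 and 0.00337. The HO values rest on 0, 209 and 2 fragments in atrium-like parts and on 150, 3400 and 1 in ventricle-like parts, so Dcx was close to absent in 3 of the 6.

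Tubb3, Map2 and Dcx had the same 3 highest HO libraries in the same order, HO ventricle-like part 2, HO atrium-like part 2 and HO ventricle-like part 1, and the same lowest one, HO atrium-like part 1. The stretches upstream of these genes that hold no annotated exon are shown because the genes moved together. They are RefSeq sequence of GRCm38.p6 (the sequence of mm10), written 5′ to 3′ on the gene's strand, with each GC box (GGGCGG, either strand) in capitals, at chr8:123411303-123411423 for Tubb3, chr1:66175079-66175201 for Map2 and chrX:143933397-143933469 for Dcx.
Tubb3: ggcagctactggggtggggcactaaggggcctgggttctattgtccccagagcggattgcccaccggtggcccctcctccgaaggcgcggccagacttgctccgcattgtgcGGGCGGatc
Map2: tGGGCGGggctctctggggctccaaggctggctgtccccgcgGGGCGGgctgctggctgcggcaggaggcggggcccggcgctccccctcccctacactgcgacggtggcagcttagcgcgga
Dcx: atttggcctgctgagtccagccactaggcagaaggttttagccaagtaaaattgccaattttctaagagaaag
G and C made up 67.8% of the Tubb3 stretch, 77.2% of that of Map2 and 42.5% of that of Dcx, so the 3 promoters differ in composition although the levels followed each other. Promoters of 6 of the 8 members were in the table (Sox10 and Ncam1 were not). In the whole 250 bases before the start site a GC box was found in 4 of the 6 (Map2, Nes, Sox2 and Tubb3). Of 32817 promoters of that length 32.7% held a GC box, a share counted by promoter and not by gene. The 6 members had 8 such promoters, with alternative ones for Dcx and Pax6, none of which held a GC box. The TATA box TATAAA (12.4% of promoters) and the homeodomain core TAATTA (4.85%) were found for Dcx alone, and the E boxes CAGCTG (13%) and CAGATG (14.5%) for none, each read on both strands. A match is a run of letters, not evidence of binding.

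Tests were run across all genes on the fragment counts with edgeR's quasi-likelihood test, and a gene was called where its Benjamini-Hochberg adjusted p was under 0.05 and its log2 fold change over 1 in size. Between E11.5H atria and ventricles, as dissected, 2 of the 7 members tested were called, against 4.9% of 14536 genes. Tubb3 was lower in atria (log2 fold change -1.58, SE 0.43, adjusted p = 0.0349), as were 1.97% of genes, and Dcx was higher (3.63, SE 0.95, adjusted p = 0.0309), as were 2.92%. Sox10 (1.82, SE 0.57, adjusted p = 0.0635), Map2 (1.52, SE 0.51, adjusted p = 0.0786) and Sox2 (-1.77, SE 0.87, adjusted p = 0.231) did not pass. Atria and ventricles did not overlap for 4 of the 7 (Sox2, Sox10, Tubb3 and Dcx), as for 34.3% of genes. For Nes the log2 fold change was -0.14 (SE 0.10) and for Ncam1 -0.19 (SE 0.08). The 2 calls were not stable against leaving out a library: Tubb3 stayed called only without atria replicate 1 (adjusted p = 0.00171) and had adjusted p between 0.0567 and 0.130 without any other, and Dcx was lost without atria replicate 2 (0.128), atria replicate 3 (0.102) or ventricles replicate 2 (0.0832). Without atria replicate 1, Sox10 and Map2 were called as well. DESeq2 called Tubb3, Sox10 (adjusted p = 0.0149) and Map2 (adjusted p = 0.0255) on all 6 libraries, and not Dcx (adjusted p = 0.0907).

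Genes of related roles were read from the same fit. Of 16 pan-neuronal genes 13 were tested, and 3 rose and 1 fell in atria: Cntn2, an axonal adhesion molecule (fitted log2 fold change 5.88, with at most 0.667 fragments in a ventricles library), Syt1, a synaptic vesicle calcium sensor (3.91), and Nefm, a neurofilament (1.86), were higher, and Stmn2, a growth cone protein, was lower (-1.86). Of 12 neural progenitor and patterning genes 4 were tested and 2 rose in atria, among them Lhx2 (4.68). Among 7 Schwann cell and glial genes tested, Fabp7, a fatty acid binding protein of glial precursors, was higher (1.92) and Erbb3, the neuregulin receptor of Schwann cell precursors, was lower (-1.43). None of 7 crest genes and none of 7 autonomic genes was called. Medians were 0.10 for pan-neuronal, 2.41 for progenitor (1.86 with genes at 0 in a group set to 3 fragments), 0.80 for glial, 0.03 for crest and -0.20 for autonomic genes, beside 0.01 over all genes tested. With 1 library left out in turn (an alternative chosen after seeing the data), Cntn2 and Erbb3 stayed called throughout. Cntn2 was the 1 pan-neuronal gene called without atria replicate 1, atria replicate 2 or ventricles replicate 1. Lhx2 was lost without atria replicate 3 or ventricles replicate 1, and Fabp7 without atria replicate 2 or ventricles replicate 2. Skeletal muscle genes summed to 0.735, 2.77 and 16.4 FPKM in the 3 atria libraries and to 0.114 to 1.59 in ventricles, and their part in the atrial values was not tested.

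**Figure D2:**
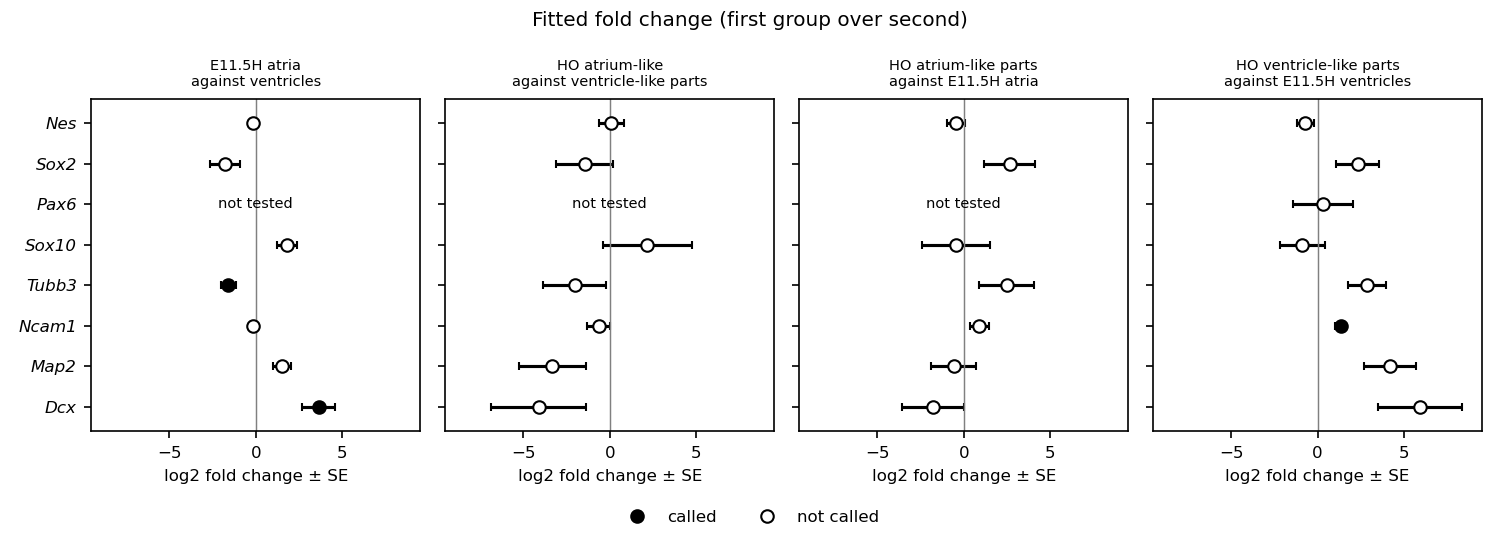
Fitted log2 fold change of each member (first group over second) with its SE in the 4 comparisons of 3 libraries against 3, on a common axis. Filled points were called by edgeR. Tubb3 and Dcx were called between the embryonic chambers and Ncam1 between HO ventricle-like parts and E11.5H ventricles, and Pax6 was tested in the last comparison alone.

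Between HO atrium-like and ventricle-like parts, the comparison that asks whether HO parts differ as the chambers do, none of the 7 members tested was called, and all 7 overlapped between the groups, where 13.1% of genes did not. No gene was called among 15703 (0%), with 889 at an unadjusted p under 0.05 and a lowest adjusted p of 0.750, while DESeq2 called 56, no member among them, and limma 0. Fitted differences were large and so were their errors: -4.10 (SE 2.74) for Dcx, -3.33 (SE 1.93) for Map2, -2.03 (SE 1.84) for Tubb3, -1.45 (SE 1.66) for Sox2, -0.64 (SE 0.67) for Ncam1, 0.10 (SE 0.72) for Nes and 2.18 (SE 2.59) for Sox10. Leaving out HO ventricle-like part 2 brought Dcx to -0.20 and Map2 to -0.54, and leaving out HO atrium-like part 2 turned Sox10 to -6.92. All 16 pan-neuronal genes tested had a negative fold change, with a median of -3.08 beside -0.03 over all genes. Of 13 autonomic genes 11 did, with a median of -1.19, and no gene of either list was called. All 16 and 12 of the 13 were highest in HO ventricle-like part 2, so these signs are not separate observations. The lists were not tested without that library in this comparison. Whether the chamber difference itself differed between HOs and E11.5H was tested as an interaction over the 12 libraries, which called 0.152% of 16494 genes and no member. The largest interaction estimates were for Dcx (-7.65, SE 3.25, adjusted p = 0.409) and Map2 (-4.78, SE 2.09, adjusted p = 0.419).

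HO atrium-like parts were compared with E11.5H atria to ask how far the neural genes of the organoid depart from the embryo. None of the 7 members tested was called, against 24.8% of 15418 genes (16% higher and 8.81% lower), and DESeq2 called no member either. Nor did any of the 7 separate the groups without overlap, as 54.4% of genes did. Estimates were 2.66 (SE 1.46, adjusted p = 0.208) for Sox2, 2.48 (SE 1.59, adjusted p = 0.273) for Tubb3 and 0.91 (SE 0.58, adjusted p = 0.265) for Ncam1 on the higher side. On the lower side they were -1.78 (SE 1.81, adjusted p = 0.488) for Dcx, -0.59 (SE 1.31) for Map2, -0.47 (SE 1.97) for Sox10 and -0.46 (SE 0.52) for Nes. HO atrium-like part 2 decided several of these: without it Tubb3 turned to -1.36, Sox10 was called lower with both remaining libraries at 0 fragments (fitted -9.65, adjusted p = 0.00933) and Dcx was called lower (-7.44, adjusted p = 0.0104). Without HO atrium-like part 1, Ncam1 was called higher (1.34, adjusted p = 0.00530).

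HO ventricle-like parts were compared in the same way with E11.5H ventricles. One of the 8 members was called, against 18.9% of 15094 genes: Ncam1 was higher in HOs (log2 fold change 1.32, SE 0.35, adjusted p = 0.0342), as were 11.6% of genes (7.35% were lower). It was also the 1 member whose 3 HO libraries did not overlap with the 3 embryonic ones, as 50.8% of genes did not. Dcx (5.90, SE 2.44, adjusted p = 0.117), Map2 (4.21, SE 1.5, adjusted p = 0.0810), Tubb3 (2.88, SE 1.10, adjusted p = 0.0967) and Sox2 (2.31, SE 1.26, adjusted p = 0.209) had higher means in HOs and overlapped with the embryo. For Pax6 the estimate was 0.32 (SE 1.73), for Nes -0.72 (SE 0.50) and for Sox10 -0.89 (SE 1.30). The Ncam1 call held only without HO ventricle-like part 3 (adjusted p = 0.000783) and was lost without any of the other 5 libraries (0.0570 to 0.130). Without HO ventricle-like part 3, Map2, Tubb3 (adjusted p = 0.00537) and Dcx were called higher too, and DESeq2 called these 3 and Ncam1 on all 6 libraries. Without HO ventricle-like part 2 Nes was called lower (-1.47), and without HO ventricle-like part 1 Sox2 was called higher.

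Lists of related genes were read next for the neural RNA that the HOs held. They cannot tell autonomic neurons of the heart from enteric neurons, for which no list was made. Of 13 autonomic neuron genes, 3 reached 1 FPKM in E11.5H, and they did so in every embryonic library: Hand2 (at least 9.18 FPKM), also a factor of ventricular muscle, Gata2 (3.87 to 5.65), also endothelial, and Gata3 (1.81 to 4.18). In HOs 2, 11 and 6 of the 13 reached 1 FPKM in atrium-like parts and 10, 12 and 5 in ventricle-like parts. Phox2a, a homeodomain factor of autonomic neurons, was at 0.153, 3.42 and 1.32 FPKM in HO atrium-like parts and at 2.48, 6.71 and 1.21 in HO ventricle-like parts, and at most 0.0387 in E11.5H. Prph, an intermediate filament of peripheral neurons, was at 0.693, 19.6 and 1.66 FPKM and at 15.5, 67.7 and 4.32, and at most 0.0726 in E11.5H. Of the 13 genes 12 were highest in HO ventricle-like part 2, as Tubb3 was.

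Tests of the autonomic list gave 5 higher and 0 lower of 11 tested in HO ventricle-like parts against E11.5H ventricles, where 11.6% of all genes were higher and 7.35% lower, with a median log2 fold change of 4.90 beside 0.09 over all genes. The filter on low counts ran on the compared libraries alone, so a gene near 0 in the embryo entered only through its HO libraries. Such a gene could only come out higher, so these counts and medians are partly set by the filter. Between the embryonic chambers 7 of the 13 genes passed it. Ret, the GDNF receptor, had no fragment in E11.5H ventricles and was at least 314-fold higher (adjusted p = 0.0162). Prph (9.32), Phox2a (7.71, against at most 2.01 fragments in an embryonic library) and Dbh, which makes noradrenaline (5.08), were called too. Gata3 (1.52, adjusted p = 0.118) did not pass, and Gata2 (0.09) and Hand2 (-0.68, adjusted p = 0.135) were close to the embryonic level or below it. In HO atrium-like parts against E11.5H atria, 2 of 9 were higher and 0 lower, Prph (fitted 9.97, with at most 1 fragment in an atria library, adjusted p = 0.0125) and Ret (5.24, adjusted p = 0.00684), with a median of 1.93 beside 0.06. That count is close to the 16% of all genes that were higher there. There Hand2 was at -1.09 and Gata2 at 0.61. These counts turn on single libraries. In the ventricular comparison 10 of 13 were called without HO ventricle-like part 3, 0 without ventricles replicate 1, 2 without ventricles replicate 2 and 1 without ventricles replicate 3. Over all left-out libraries of that comparison the median lay between 2.69 and 6.48. In the atrial one 6 of 11 were called higher without HO atrium-like part 1 and 1 without any one of the atria libraries, and Hand2 was called lower without HO atrium-like part 2.

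Pan-neuronal genes were already present in the embryo, where their sum was 87.9 to 97.1 FPKM in the 6 embryonic libraries, most of it Uchl1, a ubiquitin hydrolase, at 60.7 to 75.3. Sums in HO atrium-like parts were 8.42, 131 and 16.5 FPKM and in HO ventricle-like parts 129, 804 and 28.3, so 3 HO libraries lay above and 3 below the embryo. All 16 genes were highest in HO ventricle-like part 2, where 15 reached 1 FPKM. Examples are Stmn2, at 23.2, 129 and 0.632 FPKM in the 3 ventricle-like parts, and Gap43, an axon growth protein, at 22.5, 160 and 0.924. In HO ventricle-like parts 3 of 13 tested were higher than in E11.5H ventricles and 0 lower (Cntn2 7.94, Syt1 6.38 and Nefm 5.85), with a median of 4.85, and Stmn3 (6.39, adjusted p = 0.0725), Gap43 (1.58) and Uchl1 (-0.10) did not pass. Of all genes 11.6% were higher in that comparison. Cntn2, with at most 0.667 fragments in a ventricles library, passed the filter there only through its HO libraries and could only come out higher. In HO atrium-like parts 1 of 12 was higher, Mapt, the microtubule protein tau (3.32, adjusted p = 0.0194), and 1 lower, Uchl1 (-2.46, adjusted p = 0.00866), with a median of 1.16, where 16% of all genes were higher and 8.81% lower, no less than in the list. Nefm (3.47) and Cntn2 (-1.49) did not pass. Left-out libraries moved these counts too. Without HO ventricle-like part 3, 13 of 16 were called higher, and without HO ventricle-like part 1, 1 was. None was called higher without any one of the 3 ventricles libraries. Over all left-out libraries of the ventricular comparison, 0 to 13 were higher and 0 to 1 lower, with medians of 2.10 to 5.64. In HO atrium-like parts, 3 genes were called higher without HO atrium-like part 1 and none without any one of the atria libraries. There, 3 were lower without HO atrium-like part 2, where the median was -1.30, and 2 without HO atrium-like part 3.

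**Figure D3:**
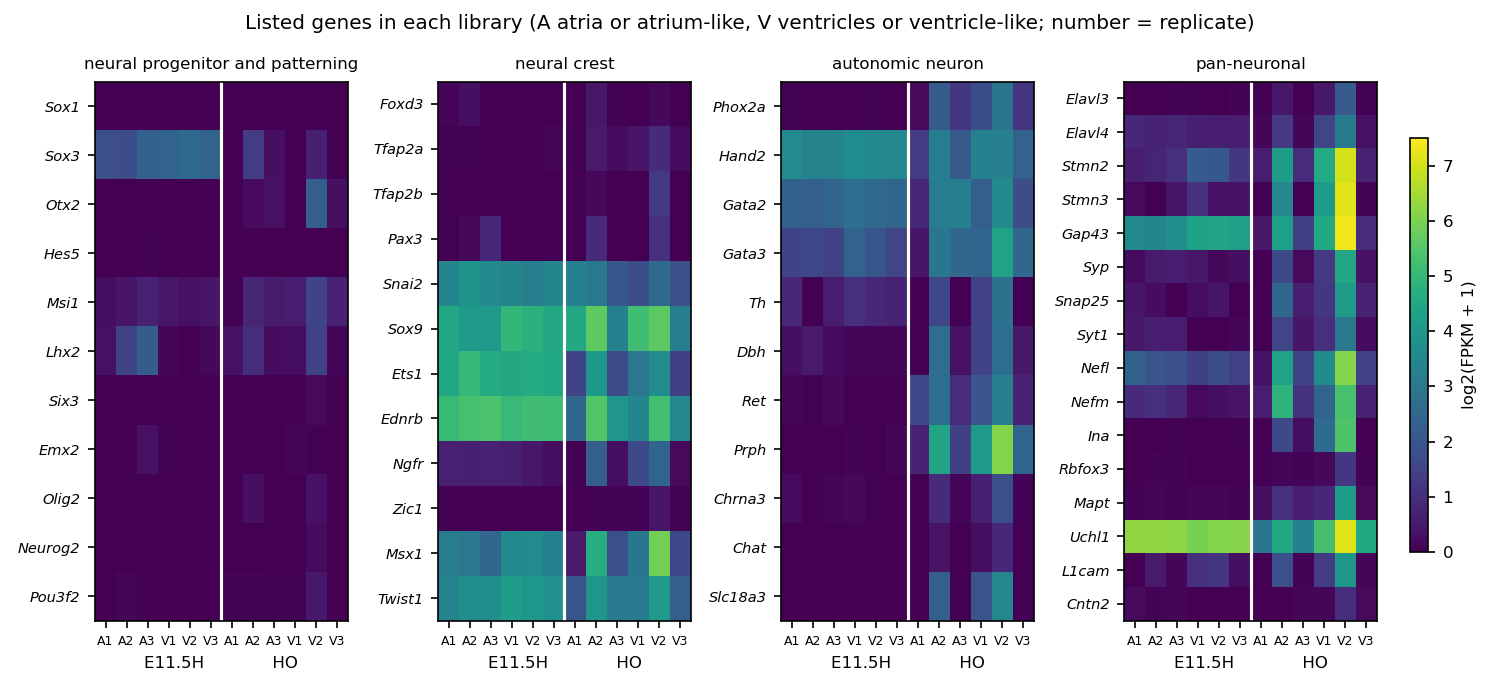
Level of genes of 4 lists (neural progenitor and patterning, neural crest, autonomic neuron, pan-neuronal) in each of the 12 libraries, as log2 of FPKM plus 1, with E11.5H on the left and HOs on the right of the white line. HO libraries A2, V1 and V2 carry most of the autonomic and pan-neuronal signal, while Hand2, Gata2, Uchl1 and 6 of the crest genes are also seen in every embryonic library.

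Genes of the central nervous system and of its progenitors were low throughout. Of 12 progenitor and patterning genes, 1 or 2 reached 1 FPKM in an E11.5H library and 0 to 3 in an HO library. Sox1, which marks the neural plate, had no fragment in any of the 12 libraries, and Neurog2 was found in HO ventricle-like part 2 alone (0.165 FPKM). Otx2, a forebrain and midbrain factor, reached 3.81 FPKM in HO ventricle-like part 2 and was at most 0.251 in the other HO libraries and 0 in E11.5H. In HO atrium-like parts 1 of 4 tested was called lower than in E11.5H atria (median -2.11), where 8.81% of all genes were lower, and 0 without any one of the 3 atria libraries. In HO ventricle-like parts 0 of 3 were called (median 1.40). Sox3 was called lower in atrium-like parts without HO atrium-like part 2 and in ventricle-like parts without HO ventricle-like part 2, and Otx2 higher in atrium-like parts without HO atrium-like part 1.

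The neural crest list had 6 of 12 genes at or above 1 FPKM in each embryonic library and sums of 103 to 124 FPKM. These sums were led by Ednrb, an endothelin receptor, and the transcription factors Ets1 and Sox9. Which cells this RNA came from was not tested, and Sox10 was at most 2.08 FPKM in the embryo. HO sums were 40.2, 158 and 39.2 FPKM in atrium-like parts and 71.4, 184 and 29.1 in ventricle-like parts, above the embryo in both replicate 2 libraries and below it in the other 4. Early crest factors stayed low: Foxd3 was at most 0.398 FPKM and Pax3 at most 1.04. None of 8 was called in HO atrium-like parts (median -0.23) and 1 of 8 fell in HO ventricle-like parts, Snai2, a factor of migrating crest and mesenchyme (-1.60, adjusted p = 0.0173), with a median of -0.37, where 7.35% of all genes fell. The others furthest from 0 there were Tfap2a (3.39) and Ets1 (-1.83). Without HO ventricle-like part 2, 4 were lower, without HO ventricle-like part 3, 2 were higher and 2 lower, and without any one of the ventricles libraries none was called. In the atrial comparison Tfap2a was called higher without HO atrium-like part 1, and Ets1 and Ednrb lower without HO atrium-like part 2.

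Glial genes fell into several patterns. Erbb3 rose in HO atrium-like parts (3.41), 1 of 7 tested (median 1.48) where 16% of all genes rose, also with any 1 library left out, and was highest in the 3 libraries with no Sox10 fragment: 28.9, 8.96 and 25.5 FPKM in atrium-like parts and 3.19, 0.954 and 17.6 in ventricle-like parts. Its order resembles that of the epithelial sums, 3573, 1080 and 3434 FPKM and 934, 629 and 2418, and the part of epithelium in it was not tested. In HO ventricle-like parts 1 of 7 rose, Egr2, a factor of myelinating Schwann cells, hindbrain and immediate early responses (6.82), with a median of 0.70, where 11.6% of all genes rose, a call that was lost without HO ventricle-like part 1 or any ventricles library. Fabp7 was at 0.780, 7.10 and 0.0403 FPKM in atrium-like parts and at 7.5, 21.9 and 0.162 in ventricle-like parts.

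Relatives of Tubb3, Map2 and Dcx differed from gene to gene in their range over the HO libraries. Tubb4b ran from 226 to 460 FPKM and Dclk1 from 0.117 to 11.7. Of 13 tubulins and microtubule-binding relatives, 2 fell and 0 rose in HO atrium-like parts against E11.5H atria (median -0.80) and likewise in HO ventricle-like parts against E11.5H ventricles (median 0.45), in both cases Tubb1, the beta-tubulin of platelets, and Tubb5, the common one. Of all genes 8.81% and 7.35% fell in these comparisons. Tubb1 had no fragment in HO atrium-like parts, at least 163-fold below the embryo, and Tubb5 was at -1.65 in atrium-like and -1.15 in ventricle-like parts. Dclk1, the doublecortin relative, was the furthest above 0 in ventricle-like parts (3.14) and did not pass. In the atrial comparison 7 of 13 were lower without HO atrium-like part 2 and Tubb1 alone without any one of the atria libraries. In the ventricular one 4 were lower without HO ventricle-like part 2, Tubb1 alone without HO ventricle-like part 1, 3 were higher and 1 lower without HO ventricle-like part 3, and none was called without any one of the ventricles libraries. Within HOs 12 of the 13 were highest in HO ventricle-like part 2, against 24.8% of all genes.

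Skeletal myogenic and endothelial lists peaked in 2 of the 3 HO libraries with the highest pan-neuronal sums, HO atrium-like part 2 and HO ventricle-like part 2. In HO ventricle-like part 1, the other of these, the skeletal myogenic sum was 0.181 FPKM and the endothelial sum 41.6. Pecam1 was at 0.449 FPKM there, but Kdr was at 17.5, the 1 of 10 endothelial genes that was highest in that library. Other lists did not all follow the neuronal genes. Skeletal myogenic genes summed to 0.102, 60.0 and 0.273 FPKM in HO atrium-like parts and to 0.181, 71.9 and 0.0968 in HO ventricle-like parts, and Myod1, the master factor of skeletal muscle, was at 10.2 and 19.3 FPKM in the 2 replicate 2 libraries and had no fragment in the other 4. Endothelial genes summed to 14.9, 81.0 and 34.6 FPKM and to 41.6, 57.6 and 26.2, beside 169 to 204 in E11.5H. All 10 endothelial genes reached 1 FPKM in the same 2 libraries and 3 or 4 did in each of the other 4, and Pecam1, an adhesion molecule of endothelium, was at 12.4 and 5.94 FPKM in those 2 and at most 0.654 in the others. The 2 libraries also had the highest levels of Nes, and HO ventricle-like part 2 that of Ncam1. Endocrine genes summed to 0, 17.8 and 3.28 FPKM and to 3.92, 87.5 and 1.14, and mesenchymal genes to 755, 3042 and 1037 and to 4782, 2057 and 516. Epithelial sums ran the other way, lowest in HO ventricle-like part 2, pluripotency genes summed to 11.3 to 35.3 FPKM with Pou5f1 at most 0.106, and cardiomyocyte sums were 131, 375 and 482 FPKM and 929, 674 and 1912. The part of these cell types in the levels of the members was not tested.

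**Figure D4:**
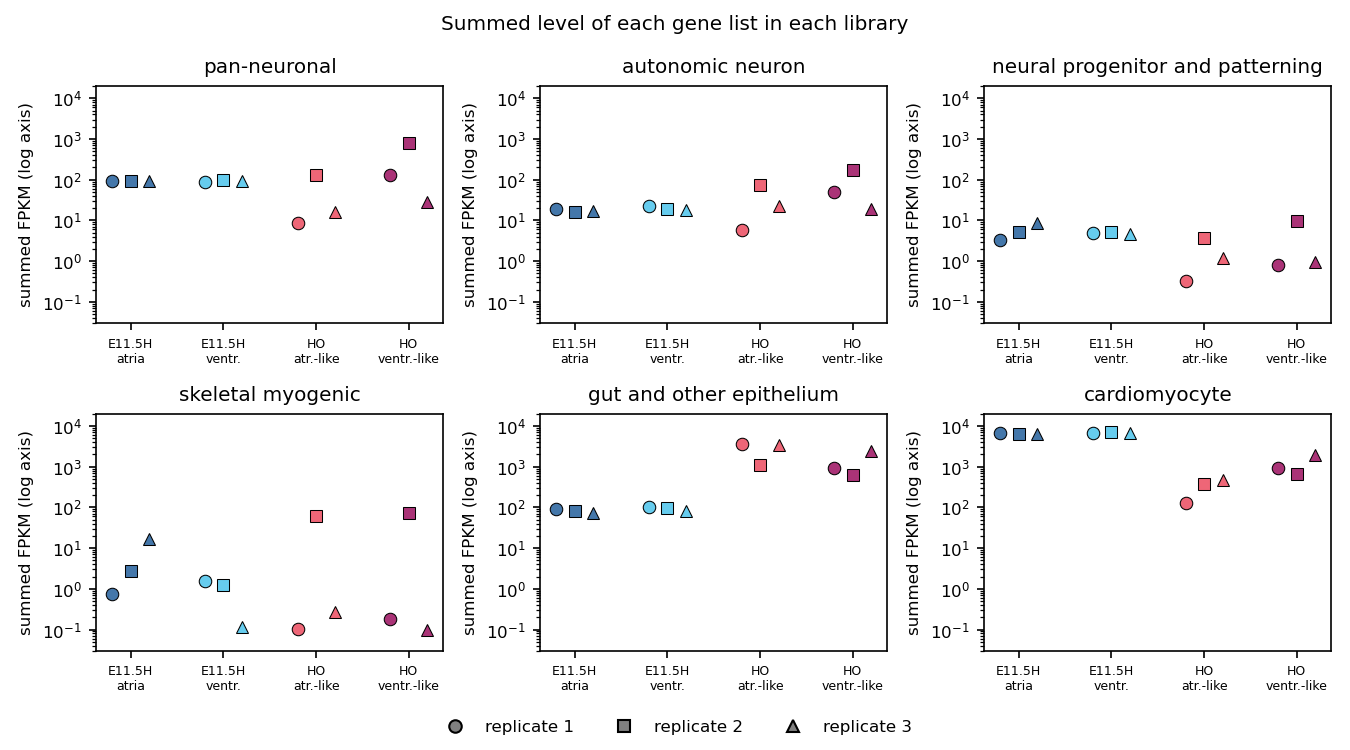
Summed FPKM of 6 gene lists in each of the 12 libraries on a log axis, by group, with symbols for replicate numbers. The pan-neuronal, autonomic and skeletal myogenic sums peak in HO ventricle-like part 2 (804, 171.5 and 71.9 FPKM), the epithelial sum is lowest there among the HOs (629 FPKM), and the cardiomyocyte sum of every HO library lies below that of every embryonic one.

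The genes whose pattern over the 12 libraries was most like that of a member were found by Pearson's r of log2 CPM over 16494 genes. The values are a description without a test, and differences of tissue between the groups enter them. For Tubb3 these were Cd44 (0.964), Stmn3 (0.947) and Fjx1 (0.944), for Map2 Fez1 (0.966), Zcchc18 (0.948) and Sox4 (0.948), and for Dcx Ncald (0.929), Olfm1 (0.923) and Zfp87 (0.921). Ncam1 was most like Tmem178 (0.980), Frmd6 (0.974) and Slc9b2 (0.969). Sox10 was most like Abcg3 (0.959), Arhgap28 (0.957) and Actn3, an actinin of fast skeletal muscle (0.954). Sox2 was most like Dhrs13 (0.882), Fgfr3 (0.859) and Trap1a (0.859), and Nes like a copy of Tmem254a (0.939), Dph3 (0.936) and another copy of Tmem254a (0.931). For Pax6, low in every library, they were 9030612E09Rik (0.849), Cd300lb (0.796) and Sox30 (0.781). Of all these genes, Stmn3 was the 1 that also stands in a list used here.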

How the data were processed

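RNA of atria and ventricles of E11.5H and of atrium-like and ventricle-like parts of day 13 HOs was sequenced, 3 libraries per group. According to the methods and the submitters' processing notes, reads were mapped to mm10 with STAR. The labels name an Illumina TruSeq kit, and the version of STAR, the counting tool, the annotation release and the use of strand are not given in the sources used here. The authors deposited expected counts (estimated fragments per gene, not normalized, of which 23.8% are not whole to within 1e-06) and FPKM values (fragments per kilobase of transcript, scaled by the library total). Column names follow the labels of the samples, and no column of per-sample values was left unused.

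Expected counts were rounded and tested over the whole table under R 4.3.3 by the quasi-likelihood method of edgeR 4.0.16, with TMM scaling and filterByExpr at a minimum count of 10, each pair of groups alone and the interaction over all 12 libraries. Levels are FPKM as deposited, with mean ± SD, and FPKM was also tested with limma 3.58.1 as an alternative. Other alternatives were RLE size factors, library totals only, the DESeq2 1.42.0 Wald test, no filter on low counts, a block for replicate number, no hemoglobin genes, 1 fit over all libraries, and leaving out each library. Figures were drawn with matplotlib 3.10.9.

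All 8 members are named in every comparison. From each of the 13 other lists the text gives counts, medians and up to 4 genes furthest from 0, with further autonomic genes that the study names. A few listed genes are counted in the lists but not reported here by name. Other listed genes, named because they were called or for their levels, were chosen after their values were seen, as was the list of transmitter genes. Members and lists were chosen with earlier results of these data known, so none is independent evidence. For genes with no fragment in a group, folds were set against 3 fragments per library. Replicates of a group differed by more than sampling noise. According to the methods, 3 HOs were each cut into both parts, but no source used here says that a shared replicate number marks a shared HO, so the numbers were not used as pairs. On simulated counts with 200 changed genes, edgeR recovered 83.5% between the embryonic chambers, 0% between the HO parts, 33.0% for HO atrium-like parts against E11.5H atria and 52.5% for HO ventricle-like parts against E11.5H ventricles. The simulated counts were drawn with edgeR's own dispersion estimates and held no effect shared by parts of the same HO.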

Additional observations from a re-analysis of the deposited data

How the results depend on the processing

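Over the alternatives that kept all libraries, 303 values of single members kept their direction and side of the threshold, 6 lost a call, 5 gained one and 11 turned direction. Between the embryonic chambers limma on log2(FPKM + 1) called 386 genes and 1 member, DESeq2 894 genes and 3 members (Sox10 and Map2 gained, Dcx lost), and a single fit of all 12 libraries 30 genes and 0 members (Tubb3 -1.59, Dcx 3.61), where the larger spread of the HO libraries enters. Between the HO parts DESeq2 called 56 genes, but on simulated counts 85 of its 180 calls were false. For HO ventricle-like parts against E11.5H ventricles DESeq2 called 4 members, the single fit 0 and the replicate block 0 (Ncam1 1.22, adjusted p = 0.0856). On simulated counts 70 of 217 DESeq2 calls were false in this comparison, and 15 of 186 between the embryonic chambers. For the interaction DESeq2 called 438 genes, limma on log2(FPKM + 1) 89, limma on log2(FPKM + 0.1) 45 and the replicate block 5. The pairing by number changed no other member's call in the 4 comparisons of groups. Same-numbered HO parts deviated from their group means with correlations of 0.030, 0.572 and 0.345 and embryonic chambers with 0.008 to 0.037, and 3 of 6 HO libraries correlated best with their own number. Tubb3 and Sox2 were higher in the ventricle-like part of the same number in 3 of 3 cases, where an exact two-sided test cannot go below 0.25, and the replicate block gave -2.75 (adjusted p = 0.559) for Tubb3 and -1.39 (adjusted p = 0.545) for Sox2. Directions turned for values that were not called: between HO parts Nes to -0.058 (library totals), -0.067 and -0.085 (limma with 1 and 0.1 added) and Sox10 to -0.12 (replicate block), and in the interaction Nes to -0.011 (library totals) and -0.0015 (limma, 0.1), Sox2 to -0.33, Sox10 to -0.30 and Pax6 to -0.019 (limma, 1), and Sox10 to -1.08 (limma, 0.1) and -1.56 (replicate block). The cause was not tested. Library totals alone moved the median of all genes to 0.11 between the embryonic chambers, -0.17 between HO parts, 0.22 for ventricle-like parts against E11.5H and -0.28 in the interaction. For HO atrium-like parts against E11.5H atria 2462 genes were higher and 1359 lower in edgeR, and 1779 and 1675, or 2249 and 2098, in limma.

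Leaving out 1 library gave 538 to 765 called genes and 0 to 4 members between the embryonic chambers, 1662 to 5495 and 0 to 2 for HO atrium-like parts against E11.5H atria, 1116 to 3725 and 0 to 4 for HO ventricle-like parts against E11.5H ventricles, and 2 to 216 genes in the interaction. Estimates that turned ranged between HO parts from -0.27 to 0.86 for Nes and -6.92 to 3.59 for Sox10, in HO atrium-like parts against E11.5H from -9.65 to 0.14 for Sox10 and -1.36 to 3.23 for Tubb3, and in HO ventricle-like parts against E11.5H from -0.68 to 0.92 for Pax6. In the interaction they ranged from -0.093 to 0.99 for Nes, -0.66 to 1.57 for Sox2, -8.75 to 1.81 for Sox10, -0.020 to 5.05 for Pax6, -4.19 to 0.98 for Tubb3 and -0.94 to 0.020 for Ncam1. Depth limits Pax6, Sox2, Sox10 and Dcx in libraries with a few fragments, where a fitted fold change depends on the prior count.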

Other observations

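Genes for transmitters and neuropeptides (a list of 13 added after seeing the data, given as levels with no test) followed the neuronal members in HOs. Vip, a peptide of parasympathetic and enteric neurons, was at 0, 36.3 and 0 FPKM in HO atrium-like parts and at 14.2, 63.7 and 0.121 in HO ventricle-like parts, and at most 0.0971 in E11.5H. Npy, a peptide of sympathetic and enteric neurons, was at 2.29, 33.1 and 1.20 FPKM and at 31.7, 90.8 and 2.76, beside 0.109 to 0.660 in E11.5H. Slc18a3, the vesicular acetylcholine transporter of the autonomic list, had no fragment in E11.5H and was at 0, 3.83 and 0 FPKM and at 2.77, 10.1 and 0. Slc5a7, the choline transporter, was at 3.0 FPKM in HO atrium-like part 2 and 5.31 in HO ventricle-like part 2, and Th, which makes catecholamine precursors, at 2.0 and 5.96. Cholinergic and noradrenergic genes were thus found in the same libraries. Slc17a6, a vesicular glutamate transporter, reached 5.65 FPKM in HO ventricle-like part 2 and at most 0.234 elsewhere.

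Other peptide genes had an embryonic pattern of their own. Calca was at 5.83 to 9.05 FPKM in E11.5H atria, at most 0.412 in E11.5H ventricles and at most 2.18 in HOs. Gal was at 15.4 to 23.1 FPKM in E11.5H atria, 5.03 to 6.02 in E11.5H ventricles and at most 6.49 in HOs. Of the 13 genes 10 were highest in HO ventricle-like part 2 among the HO libraries.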
